A study of Mus musculus with 6 samples.

Results

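The 6 genes described here encode the heavy and light chains of the myosin of heart muscle: the heavy chains *Myh6* (α) and *Myh7* (β), the ventricular light chains *Myl2* (regulatory) and *Myl3* (essential), and the atrial light chains *Myl7* (regulatory) and *Myl4* (essential). They were picked by gene symbol from a table of 17145 genes. A row was found for 5 of the 6. *Myl7* had no row in the table used here and was not analysed, and *Myl4* had 5 unique molecular identifiers (UMIs, random tags that mark single cDNA molecules) in all, so 4 members were among the 7665 genes tested (10 or more UMIs in total).

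A cardiac myosin molecule has a pair of heavy chains, each with a motor head that splits ATP and pulls on actin, and each heavy chain neck carries a regulatory and an essential light chain. The ventricle of the adult mouse uses mainly the fast α heavy chain, whereas the slower β heavy chain is the main form before birth and returns under load or in failing hearts. *Myh6* and *Myh7* lie in tandem on the same chromosome, and each holds a microRNA of the mir-208 family in an intron. Light chains of the atrial kind are also used in the embryonic ventricle, and phosphorylation of *Myl2* protein tunes the force of contraction.

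All 6 libraries came from hearts of FS6KD mice, whose *Ndufs6*, a gene for part of respiratory complex I, is knocked down by a gene-trap insertion, and no library of a wild-type heart is part of the comparison. The labels give the cells as cardiomyocytes and the mice as female. Areas of fresh-frozen sections were picked by anti-Atf3 immunostaining, and their cDNA was released by ultraviolet light (photo-isolation chemistry). The paper took both kinds of area from clusters of cells positive for Atf3, so Atf3_low does not stand for tissue without Atf3. From Atf3_high and Atf3_low areas 3 libraries each were made by CEL-seq2, which counts molecules at their 3′ ends. Because each molecule gives a single 3′ tag, levels of different genes were set side by side without division by transcript length. The mice's age at section was not given in the sources used here, and the labels do not tie a library to a mouse, so p-values measure the spread between these libraries.

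The libraries held between 81117 and 210588 UMIs, and 1 UMI was worth from 4.66 to 13.6 CPM (UMIs scaled to a common library size, with TMM factors). *Atf3* mRNA had 50, 7 and 25 UMIs in Atf3_high replicates 1, 2 and 3 and 35, 0 and 8 in Atf3_low replicates 1, 2 and 3, so that the groups, which were set by protein staining, overlapped in mRNA. *Ndufs6*, the gene knocked down in these mice, had 0 to 3 UMIs in every library. Without a wild-type library these counts cannot show the knockdown. Atf3_high replicate 2, the shallowest library, stood apart from its label as female, with 8 UMIs of *Ddx3y*, 8 of *Eif2s3y* (both Y-linked) and 0 of *Xist*. Values without that library stand beside the members' fold changes and main ratios. All but 1 of 17 cardiomyocyte marker genes in the table had UMIs in every library, the exception being *Fabp3* with 6 in all.

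*Myh6* (ENSMUSG00000040752) spans chr14:54941921-54966927 and *Myh7* (ENSMUSG00000053093) chr14:54970684-54994626 of GRCm38, both on the minus strand, with 3756 bases between them. Their coding sequences of 5817 and 5808 bases were 91.5% identical when aligned. The last coding bases are shown because a 3′ library reads this part of the transcript: only 60 bases follow the stop codon of *Myh6* and 109 that of *Myh7* in these transcripts. Lower case marks the 39 bases that both share, and capitals mark the bases from the point where they part to the stop codon.
Myh6, last 60 coding bases, chr14:54941981-54942391, minus strand, over 2 exons: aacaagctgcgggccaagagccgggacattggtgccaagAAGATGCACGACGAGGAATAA
Myh7, last 57 coding bases, chr14:54970793-54971415, minus strand, over 2 exons: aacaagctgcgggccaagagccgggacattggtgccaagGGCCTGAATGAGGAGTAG
Within the last 500 bases of both transcripts the longest run without a difference was 173 bases. A read that falls inside such a run cannot be given to either gene, and how the counting treated reads with several matches was not given in the sources used here. At 95% identity over 200 bases, *Myh6* and *Myh7* each matched 1 other gene, and none of *Myl2*, *Myl3*, *Myl4* and *Myl7* matched any.

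The sequences around the starts of both heavy chain genes are shown because Atf3, the protein that chose the areas, is a transcription factor known to bind the ATF/CRE site (TGACGTCA). They run from 250 bases before to 50 bases after the transcript start in RefSeq (GRCm38.p6). Offsets are counted from the first transcribed base, so that the base after it is 1. RefSeq gives *Myh7* a pair of starts, and the window of the upstream one is printed. Both strands were searched, and capitals mark the M-CAT element (CATTCC, or GGAATG on the other strand) bound by TEAD factors, the TATA box (TATAAA) and the first 5 letters of the ATF/CRE site (TGACG).
Myh6, chr14:54966558-54966857, minus strand: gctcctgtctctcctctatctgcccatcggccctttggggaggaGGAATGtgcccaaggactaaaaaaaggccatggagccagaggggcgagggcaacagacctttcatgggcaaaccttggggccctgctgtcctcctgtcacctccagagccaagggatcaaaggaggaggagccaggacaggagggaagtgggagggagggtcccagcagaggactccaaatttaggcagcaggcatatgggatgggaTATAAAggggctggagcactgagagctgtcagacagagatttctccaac
Myh7, chr14:54994577-54994876, minus strand: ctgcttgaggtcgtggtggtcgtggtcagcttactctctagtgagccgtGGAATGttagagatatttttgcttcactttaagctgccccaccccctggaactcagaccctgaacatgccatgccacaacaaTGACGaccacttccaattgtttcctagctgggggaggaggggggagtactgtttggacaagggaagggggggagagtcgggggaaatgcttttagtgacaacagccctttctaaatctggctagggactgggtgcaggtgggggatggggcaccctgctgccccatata
The M-CAT letters lay at −206 to −201 in *Myh6* and at −201 to −196 in *Myh7*, and 14.7% of 32817 mouse promoter windows of this length hold them. The TATA letters lay at 1 to 6 in *Myh6*, directly after the first base of the RefSeq transcript, and were found in 13.6% of all windows. The nearest GENCODE start of *Myh6* lay 2 bases from the RefSeq one. In GENCODE the gene reaches further upstream, to 54966927, beyond this window, so the offsets hold for the RefSeq start only. TGACG lay at −119 to −115 in *Myh7*, as in 20.8% of all windows. Counted from the other *Myh7* start, TGACG lay at −196 to −192, and that window did not reach the M-CAT letters. The full ATF/CRE site, which contains TGACG and is held by 1.79% of all windows, was not found in the windows of *Myh6*, *Myh7*, *Myl3*, *Myl4* or *Myl7*. Of the other motifs searched, E-boxes (CANNTG) were in the windows of both heavy chain genes, as in 72.3% of all, and neither window held the AP-1 motif (TGANTCA). The core of nuclear receptor sites (AGGTCA) was also in neither window, nor were the CArG box and the MEF2 site. The GATA site was searched in its forms that open with A (AGATAA) and with T (in letters TGATAA), and neither form was in these windows. The RefSeq starts of *Myl2* lay 7762 or more bases from the nearest GENCODE start, and its windows are not described.

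*Myh6*, the main heavy chain of the adult mouse ventricle, was 3.50-fold lower in Atf3_high than in Atf3_low areas, and it was the single member that passed the test. Its level was 1992, 2595 and 4546 CPM in Atf3_high replicates 1, 2 and 3 (392, 215 and 976 UMIs). In Atf3_low replicates 1, 2 and 3 it was 10694, 9060 and 12244 CPM (1587, 1086 and 899 UMIs). The groups did not overlap. By level within a library, *Myh6* ranked from 29 to 42 among all genes in Atf3_high and from 14 to 19 in Atf3_low.
The log2 fold change was −1.81 (standard error 0.32, edgeR quasi-likelihood test, adjusted p = 0.00512), the second smallest p of all genes tested. Genes called lower in this way made up 0.0522% of those tested (4 genes), and 3.89% were lower without overlap between the groups. The biological coefficient of variation of *Myh6* was 33.8%, against 53.6% common to all genes. Over all genes tested the median was 0.11 on the same scale. Counted together with *Myh7*, the heavy chains gave −1.76 (edgeR, adjusted p = 0.00834). This sum had to lie near the value of *Myh6*, which held 5155 UMIs in all against 104 of *Myh7*. It does not depend on which of these genes a shared read was counted for. Reads lost because they matched both genes are not covered by it.
The call was lost without Atf3_high replicate 1 (−1.58, adjusted p = 0.209), without Atf3_high replicate 2 (−1.72, adjusted p = 0.114), without Atf3_low replicate 1 (−1.85, adjusted p = 0.0508) and without Atf3_low replicate 3 (−1.71, adjusted p = 0.273), each by edgeR. The direction was the same in all 20 alternatives tried. Mitochondrially encoded genes took 17.1%, 21.2% and 16.9% of the UMIs in Atf3_high replicates 1, 2 and 3 and 21.9%, 21.9% and 22.6% in Atf3_low replicates 1, 2 and 3, without overlap. With those genes left out before scaling, *Myh6* was at −1.81 (edgeR, adjusted p = 0.0136).

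**Figure D1:**
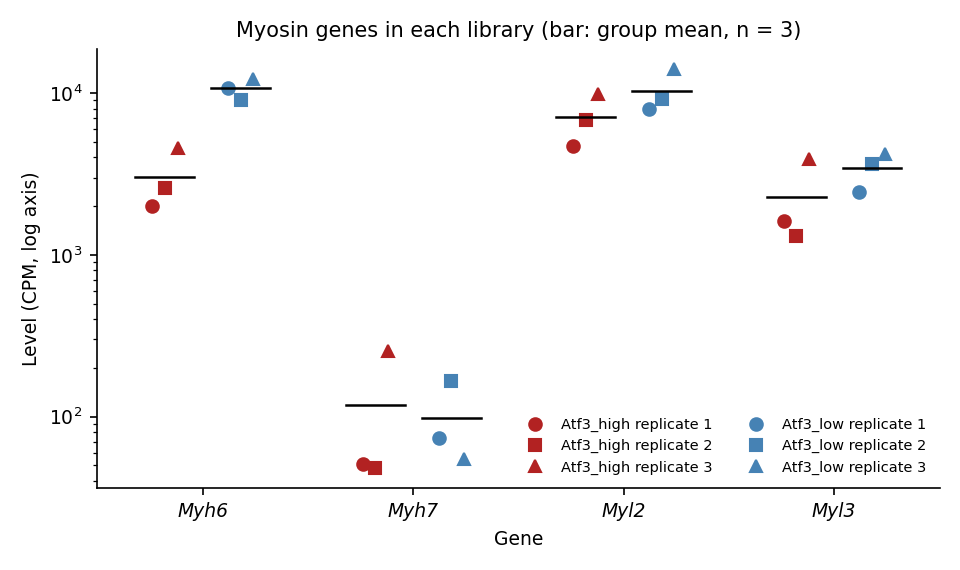
Level in CPM (log axis) of *Myh6*, *Myh7*, *Myl2* and *Myl3* in each library, with Atf3_high in red, Atf3_low in blue, marker shape for the replicate number and a bar for the mean of 3 libraries. The *Myh6* points of the groups are apart (at most 4546 against at least 9060 CPM), whereas those of the other genes overlap.

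*Myh7*, the β heavy chain, was a minor transcript in every library and its level did not separate the groups. It had 10, 4 and 55 UMIs in Atf3_high replicates 1, 2 and 3 (50.8, 48.3 and 256 CPM) and 11, 20 and 4 in Atf3_low replicates 1, 2 and 3 (74.1, 167 and 54.5 CPM). Atf3_high replicate 3 stood above all other libraries, whereas Atf3_high replicates 1 and 2 lay just below the lowest Atf3_low library, so that the groups overlapped through Atf3_high replicate 3. The log2 fold change was 0.30 (standard error 0.62, edgeR, adjusted p = 0.996), was 0.60 without Atf3_high replicate 2 and turned to −1.003 (standard error 0.77) without Atf3_high replicate 3.
As a share of all UMIs of the heavy chains, *Myh7* made up 2.49%, 1.83% and 5.33% in Atf3_high replicates 1, 2 and 3. The exact 95% binomial intervals, which cover counting error only, ran from 1.199 to 4.53%, from 0.4998 to 4.61% and from 4.04 to 6.89%. In Atf3_low replicates 1, 2 and 3 the shares were 0.688% (0.344 to 1.23%), 1.81% (1.11 to 2.78%) and 0.443% (0.121 to 1.13%). All 3 Atf3_high shares were above all 3 Atf3_low shares, but the nearest libraries, at 1.83% and 1.81%, were not distinguishable at this depth.
The mean share was 3.22% ± 1.86 in Atf3_high and 0.980% ± 0.728 in Atf3_low (SD, n = 3), a difference of 2.24 percentage points (p = 0.1 by a two-sided exact permutation test of 3 against 3 libraries, which can give no smaller p; adjusted p = 0.217 over 13 shares and ratios). Since *Myh6* itself was low in Atf3_high, 48.2% of all genes tested were higher relative to *Myh6* in Atf3_high without overlap. Without Atf3_high replicate 3 the difference was 1.18 points, and without Atf3_high replicate 2 it was 2.93 points.

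*Mhrt* is a long noncoding RNA transcribed from the opposite strand at the *Myh7* locus (chr14:54968678-54974349, plus strand), and it overlaps the *Myh7* gene by 3666 bases. It had 17, 4 and 33 UMIs in Atf3_high replicates 1, 2 and 3 and 14, 24 and 7 in Atf3_low replicates 1, 2 and 3, a range like that of *Myh7*. Its log2 fold change was −0.38 (standard error 0.58, edgeR, adjusted p = 0.996). The ratio of *Mhrt* to *Myh7* on the log2 scale differed by −0.44 between the groups, which overlapped (exact permutation test, p = 0.5). Whether the counting used the strand was not given in the sources used here, so reads of *Mhrt* and of *Myh7* in the overlap may not be separated. *Gm49130*, antisense over 932 bases of *Myh6*, had 1 UMI in all.
*Myh7b*, a further sarcomeric heavy chain gene of the heart, had 2, 3 and 14 UMIs in Atf3_high and 1, 13 and 6 in Atf3_low replicates 1, 2 and 3, and its log2 fold change was −0.75 (standard error 0.87, edgeR, adjusted p = 0.996).

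The ventricular light chains had smaller fold changes than *Myh6*, and neither passed the test. *Myl2* (ENSMUSG00000013936; chr5:122100951-122113472, plus strand) had 4695, 6831 and 9870 CPM in Atf3_high replicates 1, 2 and 3 (924, 566 and 2119 UMIs). It had 7911, 9118 and 14014 CPM in Atf3_low replicates 1, 2 and 3 (1174, 1093 and 1029 UMIs). Atf3_high replicate 3 lay above Atf3_low replicates 1 and 2, so the groups overlapped. The log2 fold change of *Myl2* was −0.54 (standard error 0.31, edgeR, adjusted p = 0.964), and −0.52 without Atf3_high replicate 2.
*Myl3* (ENSMUSG00000059741; chr9:110741861-110769798, plus strand) had 1616, 1316 and 3927 CPM in Atf3_high replicates 1, 2 and 3 (318, 109 and 843 UMIs). It had 2453, 3621 and 4222 CPM in Atf3_low replicates 1, 2 and 3 (364, 434 and 310 UMIs). Again Atf3_high replicate 3 reached into the range of Atf3_low, and the replicates 1 and 2 of Atf3_high were below it. The log2 fold change was −0.58 (standard error 0.36, edgeR, adjusted p = 0.964), −0.32 without Atf3_high replicate 2 and −1.23 without Atf3_high replicate 3 (adjusted p = 0.300).
The essential to regulatory ratio, *Myl3* over *Myl2*, was 0.345, 0.193 and 0.398 in Atf3_high replicates 1, 2 and 3 and 0.310, 0.397 and 0.302 in Atf3_low replicates 1, 2 and 3. The groups overlapped on the log2 scale, with a difference of −0.16 (exact permutation test, p = 0.9). Atf3_high replicate 2, which also held the Y-linked UMIs, had the lowest ratio.

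Of the atrial light chains, *Myl4* (ENSMUSG00000061086; chr11:104550663-104595753, plus strand) had 1, 1 and 0 UMIs in Atf3_high replicates 1, 2 and 3 and 0, 0 and 3 in Atf3_low replicates 1, 2 and 3. In the libraries without a UMI, 3 UMIs would have been 13.97 CPM in Atf3_high replicate 3, 20.2 in Atf3_low replicate 1 and 25.0 in Atf3_low replicate 2. *Myl4* thus made up 0 to 0.958% of the UMIs of the essential light chains, and the groups overlapped (exact permutation test, p = 1). The mean share was higher by 0.0880 percentage points in Atf3_high, whereas the difference was −0.163 without Atf3_high replicate 2. The largest upper bound of the exact 95% intervals of this share was 4.96%, in Atf3_high replicate 2.
Among other atrial markers, *Nppa*, the atrial natriuretic peptide, which stressed ventricles also make, rose in Atf3_high, from 2, 4 and 5 UMIs to 31, 63 and 24 (log2 fold change 3.22, standard error 0.69, edgeR, adjusted p = 0.0345). Leaving out Atf3_high replicate 2, which had the most of it, lost this call, and limma-voom and limma-trend did not make it. Of the 12 atrial markers listed, 6 were tested and 4 of them were above 0, of which *Nppa* alone passed in edgeR. The 2 below 0 were *Nr2f2* at −0.84 (standard error 0.86) and *Pam* at −0.45 (standard error 0.40). Too few UMIs for a test were found for *Kcnj3* (0, 0 and 0 in Atf3_high against 3, 1 and 3 in Atf3_low). The same held for *Tbx5* (0, 0 and 0 against 6, 1 and 1) and *Stard10* (0, 1 and 0 against 0, 0 and 0). Of 7 ventricular markers, 5 were tested and 4 were below 0, among them *Pln*, the phospholamban that restrains the calcium pump, at −0.88 (standard error 0.42). None of these ventricular markers passed an adjusted p of 0.05 in edgeR, DESeq2, limma-voom or limma-trend, and 1 had an unadjusted p under 0.05 in edgeR.

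*Myh6* was low in Atf3_high not only per library but also relative to the light chains. Per UMI of *Myl2* and *Myl3*, the UMIs of *Myh6* were 0.316, 0.319 and 0.330 in Atf3_high replicates 1, 2 and 3. They were 1.03, 0.711 and 0.672 in Atf3_low replicates 1, 2 and 3. The Atf3_high libraries were close to each other and all below the Atf3_low libraries, although the level of each gene alone varied over 2-fold among them.
On the log2 scale the ratio was −1.64 ± 0.03 in Atf3_high and −0.34 ± 0.34 in Atf3_low (SD, n = 3), a difference of −1.30 or 2.46-fold (p = 0.1 by a two-sided exact permutation test of 3 against 3 libraries, which can give no smaller p; adjusted p = 0.217 over 13 shares and ratios). Of all genes tested, 1.08% were lower relative to *Myl2* and *Myl3* without overlap. Leaving out each library in turn gave differences from −1.41 to −1.10, with −1.29 without Atf3_high replicate 2.
Against each light chain alone, *Myh6* was lower without overlap both per *Myl2* (difference −1.33) and per *Myl3* (−1.16). Exact permutation tests gave p = 0.1 for each (adjusted p = 0.217). The shares of all genes that were lower per *Myl2* or per *Myl3* alone were not counted. Between *Myh7* and *Myl2* the log2 ratio differed by 0.52 with overlap (exact permutation test, p = 0.5). With the library size set by the UMIs of *Myl2* and *Myl3*, an alternative added after the data had been seen, *Myh6* stood at −1.33 (edgeR, adjusted p = 0.395) and did not pass the test.

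**Figure D2:**
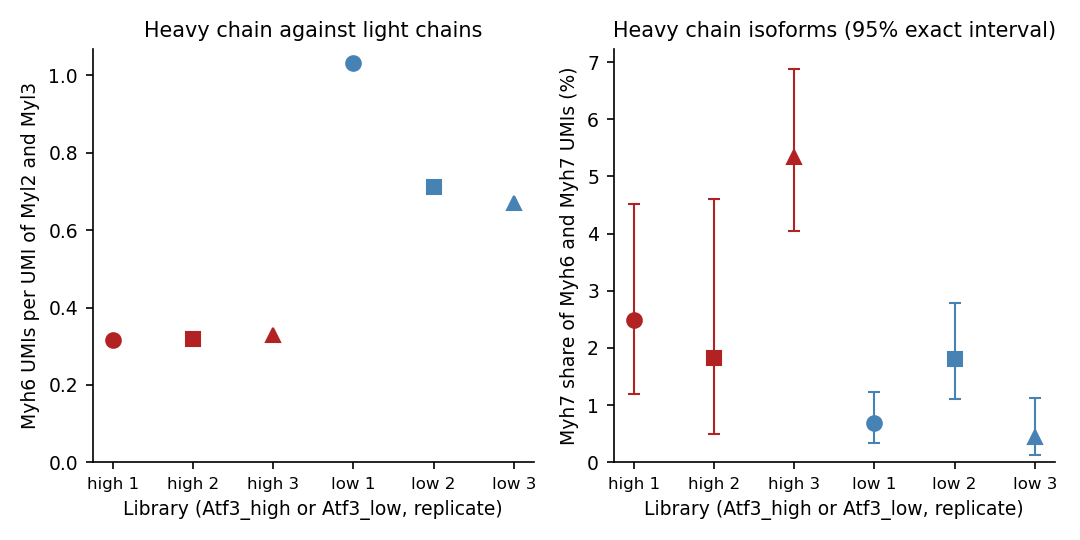
Left, UMIs of *Myh6* per UMI of *Myl2* and *Myl3* in each library; right, UMIs of *Myh7* as a percent of those of *Myh6* and *Myh7*, with exact 95% intervals of the counts (Atf3_high in red, Atf3_low in blue). On the left the red points lie between 0.316 and 0.330 and the blue ones between 0.672 and 1.03, while on the right Atf3_high replicate 2 and Atf3_low replicate 2 are almost level.

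All 5 members with a row together took 0.890%, 1.10% and 1.90% of the UMIs in Atf3_high replicates 1, 2 and 3 and 1.83%, 2.098% and 2.74% in Atf3_low replicates 1, 2 and 3. Only Atf3_high replicate 3 reached the range of Atf3_low (exact permutation test of the means, p = 0.2). The means differed by −0.926 percentage points, and by −0.829 without Atf3_high replicate 2.
Most other cardiomyocyte transcripts lay in the same direction as *Myh6*. Of 16 cardiomyocyte markers tested other than the members, 15 had fold changes below 0, with a median log2 fold change of −0.39 against 0.11 for all genes, where 44.8% were below 0. None passed an adjusted p of 0.05 in edgeR, DESeq2, limma-voom or limma-trend, and 4 had an unadjusted p under 0.05 in edgeR. *Actc1*, the cardiac actin on which myosin pulls, was at −1.14 (standard error 0.32), *Ryr2*, the calcium release channel, at −0.85 and *Atp2a2*, the calcium pump, at −0.72. Scaling by library size alone left 10 of the 16 below 0, and leaving out Atf3_high replicate 2 left 13.
The summed level of these markers ran from 24536 to 46785 CPM in Atf3_high and from 45944 to 53360 in Atf3_low. All 8 fibroblast markers were above 0 (median 1.03, 0 called by edgeR, DESeq2, limma-voom and limma-trend, 3 with an unadjusted p under 0.05 in edgeR), and their summed level ran from 1113 to 5213 CPM in Atf3_high and from 531 to 2588 in Atf3_low. *Pdgfra* and *Tcf21* were at 0 in some libraries, and the other 6 had UMIs in all. Of markers of other cells, 5 of 8 endothelial, 3 of 7 macrophage and 5 of 6 mural genes tested were above 0, and none passed in edgeR, DESeq2, limma-voom or limma-trend or had an unadjusted p under 0.05 in edgeR. The part of other cells' RNA in the level of *Myh6* was not tested by these lists. In such areas fewer cardiomyocytes and less of their RNA per cell cannot be told apart.
Relative to the summed cardiomyocyte markers, *Myh6* was 2.43-fold lower in Atf3_high without overlap (log2 difference −1.28, exact permutation test, p = 0.1), as were 1.14% of all genes tested. The same ratio differed by 0.05 for *Myl2* (p = 0.8) and by −0.12 for *Myl3* (p = 1), both with overlap and by exact permutation tests. With libraries scaled by these markers, *Myh6* stood at −1.26 (edgeR, adjusted p = 0.206) and the median of all genes was 0.68.

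**Figure D3:**
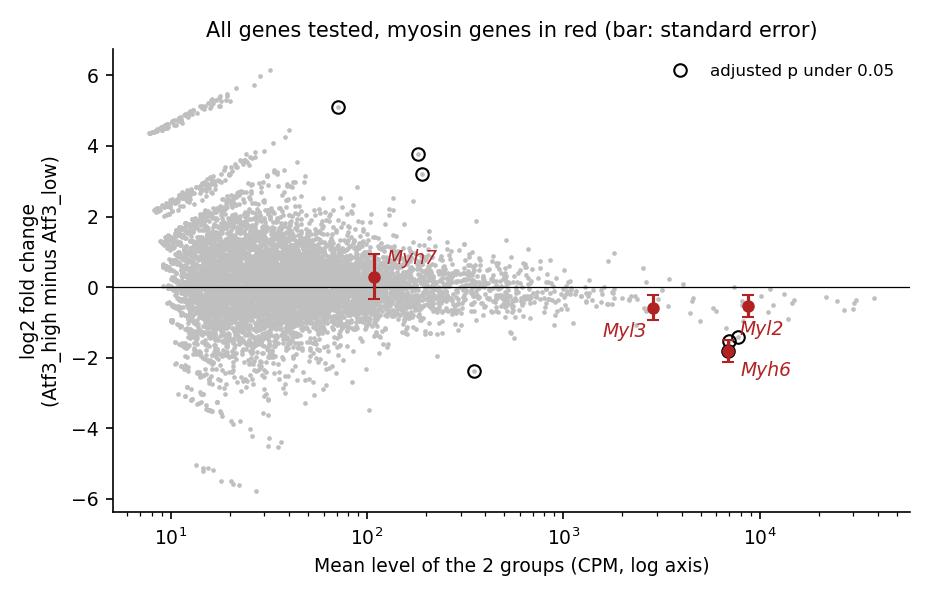
The log2 fold change (Atf3_high minus Atf3_low) of each of the 7665 genes tested against its mean level in CPM (log axis), with the 4 myosin genes in red with their standard errors and the 7 genes of adjusted p under 0.05 circled. *Myh6* at −1.81 lies below the other abundant genes, among which *Myl2* and *Myl3* are at −0.54 and −0.58.

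No gene for a protein that binds, folds or breaks down sarcomeric myosin passed the test. Of 16 genes on this list, 12 were tested, 4 were above and 8 below 0, and their median was −0.20. The list also held *Myh7b*, itself a heavy chain gene, which is counted among the 8. *Mybpc3*, the myosin binding protein that brakes the heads, was at −0.36 (standard error 0.37) and *Trim63*, a ubiquitin ligase that marks heavy chains for breakdown, at 0.69 (standard error 0.69). None passed in edgeR, DESeq2, limma-voom or limma-trend, and 0 had an unadjusted p under 0.05 in edgeR. Without Atf3_high replicate 2, 6 were above and 6 below 0.
*Mylk4*, a kinase of the myosin light chain kinase family, was singled out after its values had been seen. It had 0, 0 and 2 UMIs in Atf3_high replicates 1, 2 and 3 and 8, 7 and 4 in Atf3_low replicates 1, 2 and 3, without overlap (edgeR, adjusted p = 0.649). *Mylk3*, the kinase of cardiac *Myl2*, had 19, 16 and 53 against 31, 27 and 19 UMIs, with overlap.

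Of 18 genes listed for the myosins of smooth muscle and non-muscle cells, the kinase *Mylk* among them, 17 were tested. Of these, 11 were above and 6 below 0 (median 0.13). None passed in edgeR, DESeq2, limma-voom or limma-trend or had an unadjusted p under 0.05 in edgeR. *Myl9*, the regulatory light chain of smooth muscle, had 7, 3 and 6 UMIs in Atf3_high and 0, 2 and 2 in Atf3_low replicates 1, 2 and 3, and *Myo10*, the motor of filopodia, 4, 2 and 4 against 0, 2 and 0. Of 13 genes listed for skeletal and embryonic muscle (myosins, myosin binding proteins and a kinase), a row was found for *Myl1*, the essential light chain of fast muscle. *Myl1* had 0 UMIs in the 3 Atf3_high libraries and 4, 2 and 2 in Atf3_low.

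Of 25 regulators of the heavy chain genes, 20 were tested, and 14 of these had fold changes below 0 (median −0.39). None passed an adjusted p of 0.05 in edgeR, DESeq2, limma-voom or limma-trend, and 2 had an unadjusted p under 0.05 in edgeR. With scaling by cardiomyocyte markers their median was 0.26, against 0.68 for all genes.
*Gata4*, an activator of *Myh6*, had 15, 3 and 15 UMIs in Atf3_high and 16, 13 and 14 in Atf3_low replicates 1, 2 and 3 (log2 fold change −1.06, standard error 0.61, adjusted p = 0.964). *Purb*, a repressor of *Myh6*, was at −1.31 (standard error 0.55, adjusted p = 0.760), with 13, 8 and 22 against 17, 23 and 27 UMIs. *Myocd*, the coactivator of serum response factor, had 0, 0 and 1 UMIs in Atf3_high and 7, 2 and 1 in Atf3_low. These 3 of the 20 were lower in Atf3_high without overlap in CPM, where 3.89% of all genes tested were. *Smarca4*, a chromatin remodeller, was higher without overlap, on few UMIs (5, 2 and 7 against 1, 2 and 1). Its log2 fold change was 1.15 (standard error 1.18, edgeR, adjusted p = 0.996). The share of all genes that were higher without overlap was not counted. *Tbx5*, which had too few UMIs to be tested, had 0, 0 and 0 against 6, 1 and 1. *Sox6*, a repressor of slow myosin genes, had 2, 3 and 1 against 0, 0 and 0.
Of 9 fetal and load responsive genes tested, 7 were above 0 (median 0.96), *Nppa* among them, with 4 at an unadjusted p under 0.05 in edgeR, as had 5.79% of all genes. Without Atf3_high replicate 2 their median was 0.31 and 2 had an unadjusted p under 0.05. *Gdf15*, a stress hormone, was at 2.44 (standard error 0.62, adjusted p = 0.223) and *Xirp2*, a protein of the intercalated disc, at 0.96 (standard error 0.38, adjusted p = 0.699). *Nppb*, a natriuretic peptide that the paper used as a marker of heart failure, was at −0.0069 (standard error 0.36). Its mean was 1278 CPM in Atf3_high and 1288 in Atf3_low. *Ankrd1* was at 0.095 (standard error 0.32) and *Actn1*, the other gene below 0, at −0.36 (standard error 0.85).

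Over the 6 libraries the levels of *Myl2* and *Myl3* followed each other most closely among the members (Pearson r = 0.843 on log2 CPM with 4 added), *Myh6* followed *Myl2* (0.794) and *Myl3* (0.756), and *Myh7* followed *Myh6* least (0.227). These values describe 6 libraries that fall into groups and differ in depth.
Of 1877 genes with at least 60 UMIs, the 3 most like *Myh6* were *Rps2-ps13* (a ribosomal pseudogene, r = 0.978), *Ppargc1a* (the coactivator PGC-1α of mitochondrial genes, r = 0.974) and *Cox7a1* (a muscle subunit of complex IV, r = 0.971). *Ppargc1a* had 17, 11 and 35 UMIs in Atf3_high and 41, 33 and 31 in Atf3_low replicates 1, 2 and 3. The 3 most like *Myl2* were *Cox4i1* (0.993), *Tomm22* (0.981) and *Tnni3* (0.977), the last being the cardiac troponin I. For *Myl3* they were *Ech1* (0.982), *Slc25a11* (0.971) and *Dmpk* (0.965). For *Myh7* they were *Rilpl1* (0.970), *Tango2* (0.969) and *Klc1* (0.956), each of which, like *Myh7*, had its most UMIs in Atf3_high replicate 3.

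**Figure D4:**
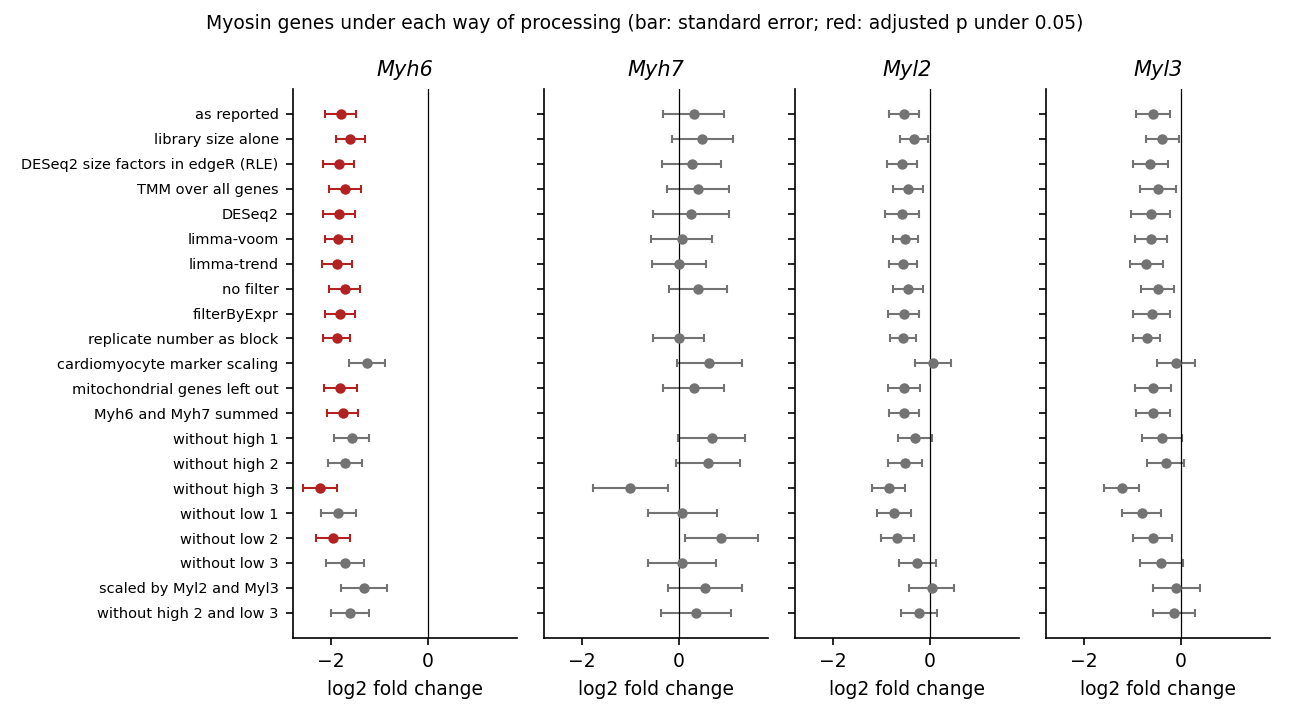
The log2 fold change (Atf3_high minus Atf3_low) of each myosin gene with its standard error under the reported settings and under each alternative, in red where the adjusted p was under 0.05. *Myh6* lies left of 0 in each row, from −2.23 to −1.26, whereas *Myh7* crosses 0 and *Myl2* and *Myl3* come close to it when libraries are scaled by cardiomyocyte markers or by light chains.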

How the data were processed

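The authors deposited a count of UMIs for each gene and library, made from NovaSeq6000 reads of CEL-seq2 libraries mapped to GRCm38. The submitters' processing notes name HISAT2 (version 2.1.0), UMI-tools (version 1.0.0) and featureCounts (version 1.6.4). The annotation release, the use of strand and the handling of reads with several matches were not given in the sources used here. In this setting, a read shared by *Myh6* and *Myh7* could be lost or counted for either.

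The labels gave the groups. Of 17145 genes, the 7665 with 10 or more UMIs were scaled by TMM and compared by edgeR's quasi-likelihood test (version 4.0.16, in R version 4.3.3) without covariates, with Benjamini-Hochberg adjustment and a threshold of 0.05. The fit was tested on simulated data. Shares of UMIs, and log2 ratios with 0.5 UMI added, were compared by two-sided exact permutation tests over the 6 libraries. Within each group no pair of libraries was a repeat of the same counts (chi-square over degrees of freedom, 4.63 or more), and each counted as a replicate. Alternatives used DESeq2 (version 1.42.0), limma (version 3.58.1; voom, and trend with a prior count of 2), other scalings and filters, a replicate block and leaving out each library.

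The members, the lists and the tests were chosen with earlier results of these data known. Genes named are the members, in each list the 3 with the smallest p and any past the threshold, and the 3 genes most like each member (some genes that this rule names are not reported here); *Mhrt*, *Mylk3*, *Mylk4*, *Myh7b*, *Myl1*, *Tbx5*, *Sox6*, *Smarca4*, *Gm49130* and the marker genes listed at 0 were added for their role or after their values had been seen. *Nppb*, *Ankrd1*, *Actn1*, *Nr2f2*, *Kcnj3* and *Stard10* were likewise added after their values had been seen. Positions and transcripts are those of GENCODE for GRCm38, near-identical copies were sought with BLAST+ (version 2.17.0), and coding sequences were aligned with Biopython (version 1.88).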

Additional observations from a re-analysis of the deposited data

How the results depend on the processing

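*Myh6* was lower in Atf3_high under all 20 alternatives (−2.23 to −1.26) and passed an adjusted p of 0.05 in 13 of them, by DESeq2 with −1.84 and an adjusted p of 5.77e-05. It did not pass with scaling by cardiomyocyte markers (−1.26) or by *Myl2* and *Myl3* (−1.33), which set the median of all genes to 0.68 and 0.67, so that *Myh6* lay below that median in both. Nor did it pass without 1 of 4 libraries named above, or without both Atf3_high replicate 2 and Atf3_low replicate 3, the shallowest libraries (−1.61, adjusted p = 0.703, added after the data had been seen). Leaving out each library in turn gave −2.23 to −1.58 for *Myh6*, −1.003 to 0.87 for *Myh7*, −0.85 to −0.27 for *Myl2* and −1.23 to −0.32 for *Myl3*. *Myh7* turned to −1.003 without Atf3_high replicate 3. *Myl2* turned to 0.0569 with scaling by cardiomyocyte markers and to 0.0317 with scaling by *Myl2* and *Myl3*; the latter holds these genes near 0 by construction, and both values lie below the shifted median of all genes. *Myh7*, *Myl2* and *Myl3* passed the test in none of their alternatives, with adjusted p from 0.300 up.

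The count of genes called, 7 with the reported settings, was 12 with DESeq2, 4 with scaling by *Myl2* and *Myl3*, and 0 to 11 without 1 library (11 without Atf3_high replicate 3). It was 0 by edgeR without Atf3_low replicate 1 (477 genes at an unadjusted p under 0.05; DESeq2 called 1, limma-voom 1 and limma-trend 3). It was also 0 by edgeR without both shallow libraries (299 genes at an unadjusted p under 0.05; DESeq2 called 0, limma-voom 3 and limma-trend 1). The cause was not tested.

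With the replicate number as a block, *Myh6* was at −1.88 (adjusted p = 1.57e-07), *Myh7* at −0.0105 and 24 genes were called. Deviations from the group means correlated weakly between Atf3_high and Atf3_low libraries of the same number (r = 0.085, 0.001 and 0.066 for replicates 1, 2 and 3). Between libraries of different numbers r ran from −0.095 to 0.019. These values do not settle whether the numbers mark pairs. The block gave shares and ratios the same differences by construction. The *Myl4* share differed by 0.09 points, and by −0.11 from UMIs summed within a group. The share of *Myl7* among regulatory light chains was planned and not run, since the gene had no row. Depth limits *Myh7* and *Myl4*, with 104 and 5 UMIs in all.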
